A study of Mus musculus with 2 samples.

Results

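The Kcn genes encode potassium channels and their partner subunits, and their chromatin was described here in MN1, an immortalized mouse cell line. Every protein-coding gene of GENCODE M21 on chromosomes 1 to 19 and X whose symbol starts with Kcn was taken, which gave 94 genes of 21755. The assay was DNase-seq, in which the enzyme DNase I cuts DNA that is not packed around nucleosomes, and clusters of cuts are called as peaks and as broader hotspots. The study held 1 group with 2 libraries, labelled as biological replicates 1 and 2 of MN1 of strain B6NCrl. Neither library had a treatment, and the labels give no tissue and state no age or sex. The labels of replicate 2 name a pair of Illumina sequencer models and those of replicate 1 name none, so depth and instrument cannot be told apart from the replicate. With no second condition there was no test to run, and the Kcn genes are described beside all genes in the same libraries.

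Potassium channels let potassium leave the cell and so set its resting voltage and end its electrical spikes. Voltage-gated channels open on depolarization, inward rectifiers and two-pore-domain channels hold the resting voltage, and calcium-activated channels shape the pause after a spike. In neurons the mix of these subunits sets how a cell fires, and open chromatin at a promoter is known as a frequent but not sufficient feature of a gene in use.

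Replicate 1 held 170600 distinct peaks and 140519 hotspots, and replicate 2 held 162983 peaks and 135294 hotspots. Of these peaks, 67.1% in replicate 1 and 70.2% in replicate 2 overlapped a peak of the other library. Read depth is unknown, so no counting interval can be given. Promoters of pan-neuronal genes had a peak in both libraries in 12 of 12 cases (such as Tubb3, Snap25 and Map2), against 59.4% of all genes. The same was seen for 6 of 8 motor neuron genes, with Mnx1 and Slc5a7 as the exceptions. It held for 0 of 4 skeletal muscle genes, 1 of 4 cardiac genes (Tnnt2) and 1 of 4 glial genes (Gfap). All 4 skeletal muscle markers (Myod1, Myog, Myf5 and Acta1) lacked a promoter peak in either library.

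The sequences below show what the strong open sites of leading Kcn genes look like. They are 3 promoter peaks and 3 distal peaks that both libraries share, read from the mm10 genome (RefSeq, GRCm38.p6) on the strand of the gene. Bases of annotated untranslated regions were left out, and capitals mark matches to the short motifs named further on, on either strand. For Kcnab2 the peak shown is not its strongest one, because that one left fewer than 75 bases outside these regions.
Kcnab2 promoter peak, intron, chr4:152418776-152418925, minus strand, no match: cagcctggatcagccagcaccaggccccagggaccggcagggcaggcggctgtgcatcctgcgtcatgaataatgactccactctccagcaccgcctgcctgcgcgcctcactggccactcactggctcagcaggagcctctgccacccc
Kcnmb4 promoter peak, chr10:116473879-116474025, minus strand, SP/KLF matches: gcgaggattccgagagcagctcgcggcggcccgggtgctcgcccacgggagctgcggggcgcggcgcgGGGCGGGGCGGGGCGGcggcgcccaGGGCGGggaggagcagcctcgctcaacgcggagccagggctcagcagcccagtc
Kcnn3 promoter peak, chr3:89520016-89520163, plus strand, NFY match: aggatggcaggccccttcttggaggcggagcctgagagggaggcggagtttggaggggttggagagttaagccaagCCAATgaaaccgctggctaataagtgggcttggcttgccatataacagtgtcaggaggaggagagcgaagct
Kcnn3 distal peak, intron, chr3:89522836-89522985, plus strand, no match: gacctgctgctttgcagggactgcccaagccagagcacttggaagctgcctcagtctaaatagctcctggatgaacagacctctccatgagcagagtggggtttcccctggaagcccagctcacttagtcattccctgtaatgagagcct
Kcnab2 distal peak, intron, chr4:152406676-152406825, minus strand, NFY match: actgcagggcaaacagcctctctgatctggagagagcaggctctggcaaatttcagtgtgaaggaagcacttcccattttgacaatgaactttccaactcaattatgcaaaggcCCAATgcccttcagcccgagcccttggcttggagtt
Kcnh2 distal peak, exon of a protein-coding gene, chr5:24383496-24383645, minus strand, no match: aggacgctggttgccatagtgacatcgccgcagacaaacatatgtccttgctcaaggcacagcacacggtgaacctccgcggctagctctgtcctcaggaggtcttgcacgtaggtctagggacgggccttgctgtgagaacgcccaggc
The promoter peak of Kcnmb4 held 22 CpG dinucleotides in the bases shown and a GC content of 81%, and that of Kcnn3 held 4 at a GC content of 56.8%. The distal peaks of Kcnn3, Kcnab2 and Kcnh2 held 0, 1 and 9 CpG dinucleotides, at GC contents of 54.7%, 50% and 59.3%.

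A promoter peak, with its centre within 1 kb of any start site of the gene, was present in both libraries for 37 of the 94 Kcn genes (39.4%), against 59.4% of all genes. Another 4 Kcn genes had one in replicate 1 only and 6 in replicate 2 only, and 47 had one in neither. Over all 21755 genes these counts were 406, 368 and 8049, so calls in 1 library only took a larger share of the Kcn genes. Hotspots split the Kcn genes in the same way, with 37 in both libraries (39.4%) against 59.9% of all genes. In single libraries the Kcn count was 41 in replicate 1 and 43 in replicate 2, and the call differed between the libraries at the 10 genes with a peak in 1 of them. The peaks at Kcn promoters were also lower. Within each list a peak was given a percentile by its deposited score, with 100 at the top, and the median best promoter peak of the 37 genes lay at 83.1 in replicate 1 and 87.5 in replicate 2. The medians for all genes with a promoter peak in both libraries were 95.5 in replicate 1 and 95.6 in replicate 2. The gap between the Kcn genes and all genes was thus larger than the gap between the libraries. A promoter peak at or above percentile 95 in both libraries was held by 4 Kcn genes (4.26%), against 27.9% of all genes, among them Kcnab2 and Kcnn3.

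**Figure D1:**
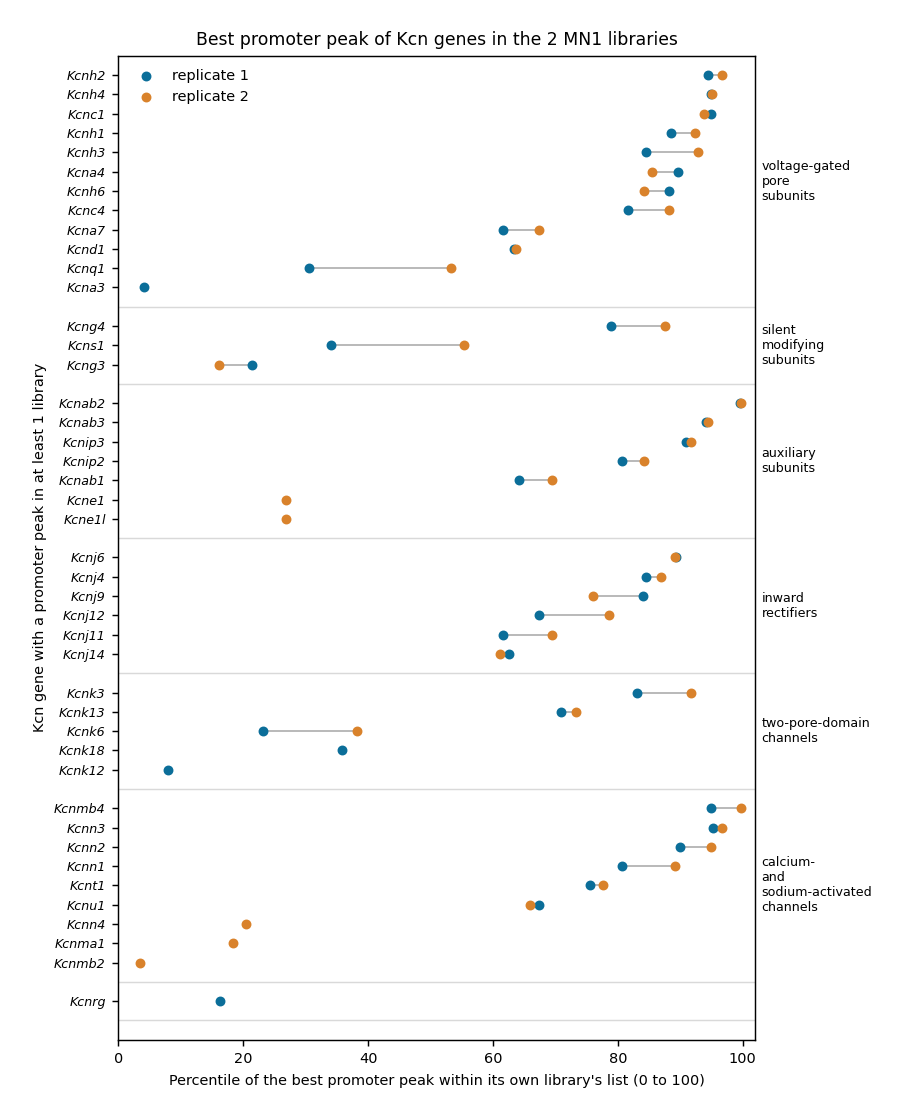
Percentile of the best promoter peak within its own library's list (x axis, 0 to 100) for Kcn genes with a promoter peak in at least 1 library (rows, by role), with replicate 1 in blue and replicate 2 in orange. Genes with a single point had a peak in that library only, and these points lie between 3.41 and 35.8, while Kcnab2 lies at 99.51 in replicate 1 and 99.64 in replicate 2, where Kcnmb4 has the same value.

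Voltage-gated pore subunits form the voltage-opened pores themselves, and 14 of 30 were open (46.7%), a word used from here on for a promoter peak in both libraries. Kcnh2, the ERG channel that also repolarizes heart muscle, had percentiles of 94.42 in replicate 1 and 96.62 in replicate 2. Kcnh4, of the same subfamily, lay at 94.95 and 95.1, and Kcnc1, from the subfamily that lets neurons fire fast, at 94.95 and 93.86. The subfamilies differed in count. Kcnh had 5 of 8 genes with a peak in both libraries, against 2 of 8 in Kcna and 1 of 3 in Kcnd. The 2 open Kcna genes were Kcna4, at 89.59 and 85.42, and Kcna7, at 61.66 and 67.38. Kcna1, Kcna2 and Kcna6, the pore subunits of the low-threshold current of axons, had no promoter peak in either library. Kcnq3 and Kcnq5, pore subunits of the M-current that steadies neuronal firing, had no promoter peak. Kcnd2 and Kcnd3, which carry the fast A-type current of dendrites and heart, had none either.

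Silent modifying subunits do not form channels alone and tune the voltage-gated pores they join. Of these 10 genes, 3 were open (30%). Kcng4 was the highest, at 78.95 in replicate 1 and 87.54 in replicate 2. Kcns1 followed at 34.1 and 55.41, and Kcng3 lay low in both lists at 21.43 and 16.18. Kcnf1, Kcnv1 and Kcnv2 had no promoter peak.

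Auxiliary subunits had 5 of 12 promoters open in both libraries (41.7%), and these were divided unevenly. All 3 Kcnab genes, whose products are the cytosolic beta subunits of Kcna channels, were open, against 2 of 4 Kcnip genes and 0 of 5 Kcne genes. Kcnab2 lay at 99.51 in replicate 1 and 99.64 in replicate 2, the highest Kcn value in replicate 1 and level with Kcnmb4 in replicate 2. Kcnab3 lay at 94.13 and 94.35 in replicates 1 and 2. Kcnab1 was lower, at 64.2 and 69.45. Kcnip3, a calcium sensor that binds Kcnd channels and is also known as the repressor DREAM, lay at 90.92 and 91.78. Kcne genes encode small membrane subunits known from heart and epithelium. Kcne1 and Kcne1l each had a peak in replicate 2 only, at percentile 26.82.

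Inward rectifiers had 6 of 15 promoters open in both libraries (40%). Kcnj6, a pore subunit of the G-protein-gated channel of neurons, lay at 89.25 in replicate 1 and 89.16 in replicate 2. Kcnj9, from the same G-protein-gated group, lay at 83.97 and 75.97. The remaining members of that group, Kcnj3 and Kcnj5, had no promoter peak in either library. Kcnj4, a strong inward rectifier, lay at 84.43 and 86.86. Its relative Kcnj12 lay at 67.34 and 78.57, and Kcnj2, from the same strong-rectifier group, had no promoter peak. Kcnj11, the pore of the ATP-sensitive channel, was open at 61.66 and 69.45, while Kcnj8, which encodes another ATP-sensitive pore, was not.

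Two-pore-domain channels, which carry background potassium leak, had the lowest share of the roles with 10 or more genes, at 3 of 14 (21.4%). This rank held only for the 1 kb window. At 500 bp their count was still 3, and silent subunits had 1 of 10. At 2.5 kb their count was 6, and silent subunits had 3. Kcnk3, an acid-sensitive leak channel, lay at 83.06 in replicate 1 and 91.78 in replicate 2. Kcnk13 lay at 70.9 and 73.23, and Kcnk6 at 23.24 and 38.15. Kcnk12 and Kcnk18 had a promoter peak in replicate 1 only. The mechanically gated Kcnk2, Kcnk4 and Kcnk10 had no promoter peak in either library.

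Calcium- and sodium-activated channels had 6 of 12 promoters open in both libraries (50%). Kcnmb4, the neuronal beta subunit of the large-conductance calcium-activated channel, lay at 94.95 in replicate 1 and 99.64 in replicate 2. Kcnma1, the pore of that same channel, had only a low peak in replicate 2, at 18.32, and none in replicate 1. Of the small-conductance channels that shape the pause after a spike, Kcnn3 lay at 95.22 and 96.62. Kcnn2 lay at 89.93 and 94.85, and Kcnn1 at 80.6 and 89.16. Kcnn4, the intermediate-conductance relative known from blood and epithelium, had a peak in replicate 2 only, at 20.42. Kcnt1, a sodium-activated channel, was open at 75.47 and 77.57, and its relative Kcnt2 was not. Kcnrg, a cytosolic regulator named for its similarity to channel assembly domains, stood alone with a peak in replicate 1 only, at 16.23.

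**Figure D2:**
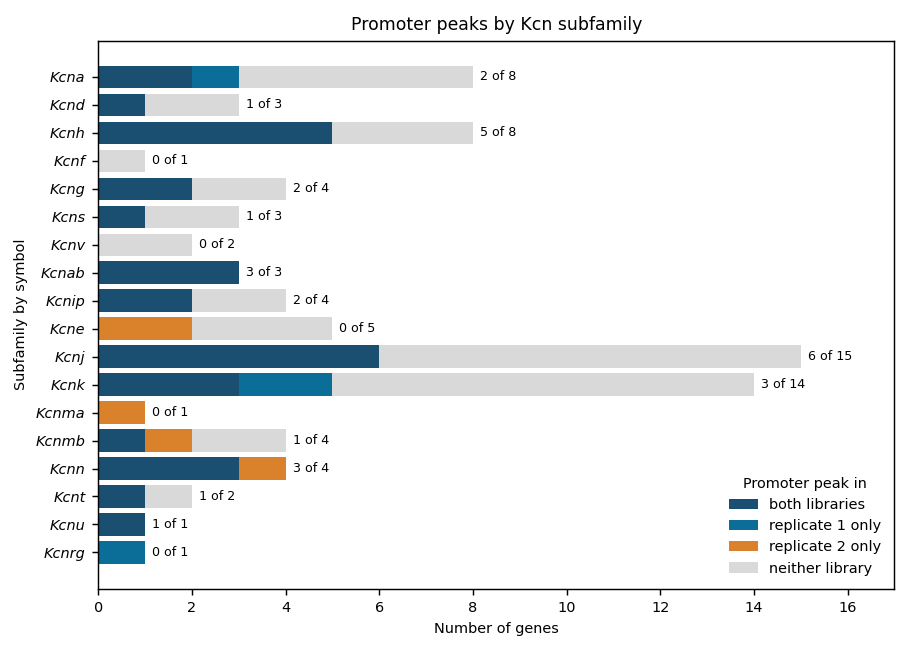
Number of genes (x axis) in Kcn subfamilies (rows) with a promoter peak in both libraries (dark blue), replicate 1 only (blue), replicate 2 only (orange) or neither (grey). The label gives the genes with a peak in both libraries of all genes in the subfamily, from 3 of 3 in Kcnab to 0 of 5 in Kcne.

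In the 10 genes with a promoter peak in 1 library only, the best promoter peak lay low in its list. In replicate 1 these genes were Kcnk18 at 35.8, Kcnrg at 16.23, Kcnk12 at 7.89 and Kcna3 at 4.19. In replicate 2 they included Kcne1 and Kcne1l at 26.82, Kcnn4 at 20.42, Kcnma1 at 18.32 and Kcnmb2 at 3.41. Of the 37 genes open in both libraries, Kcnk6 and Kcng3 were the only ones under percentile 50 in both. Among all 12932 open genes, 411 had such low peaks in both libraries. As shares of genes whether open or not, these are 2.13% of the Kcn genes and 1.89% of all genes.

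Peaks lay close to annotated starts. Across the 37 genes the best promoter peak of replicate 1 lay a median 87 bp from the nearest start site, and 29 of 37 lay within 250 bp. It lay upstream of that start in 30 genes and downstream in 7. The best peak of replicate 2 had its centre within 100 bp of that of replicate 1 in 28 genes. The others included Kcnh2 and Kcnip3, whose best peaks in the 2 libraries lay at different start sites of the gene.

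Many Kcn genes have alternative start sites. Of the 19 Kcn genes with 1 start site, 5 were open (26.3%), against 29.4% of all such genes. Of the 75 with 2 or more, 32 were open (42.7%), against 67.9% of all such genes. When start sites were joined into groups, the 94 Kcn genes had 184 groups and 45 of these (24.5%) had a promoter peak in both libraries, against 36.4% of 44269 groups over all genes. Kcnab2 had 3 open groups of 7 and Kcnab1 3 of 5. Kcnip3 had 2 of 2, Kcnh2 2 of 4 and Kcnn1 2 of 4. In Kcnt1 only 1 group of 7 was open, while Kcnma1 had none of 7 open, Kcnip4 none of 6 and Kcnk2 none of 5. In 5 of the 37 open Kcn genes (Kcnq1, Kcnu1, Kcnh6, Kcnn2 and Kcnip2) the open start was not the outermost one. Among all open genes it was 972 of 12932. As shares of genes whether open or not, these are 5.32% of the Kcn genes and 4.47% of all genes.

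Promoter CpG content differed less between Kcn genes with and without a promoter peak than it did over all genes. The CpG observed/expected ratio within 500 bp of the outermost start had a median of 0.653 in the 37 open Kcn genes and 0.454 in the 47 with a promoter peak in neither library. Over all genes the medians were 0.713 for open genes and 0.206 for those with a peak in neither library. All genes were cut into 3 equal classes by this ratio, at 0.309 and 0.71. In the high class 14 of 23 Kcn genes (60.9%) were open, against 90% of all genes. In the middle class it was 16 of 43 (37.2%), against 67.9% of all genes. In the low class it was 7 of 28 (25%), against 20.5% of all genes. The Kcn share was therefore below that of all genes in the high and middle classes and not in the low one. CpG-rich Kcn promoters without a peak in either library included Kcnk9 at a ratio of 0.911, Kcnd3 at 0.874 and Kcnd2 at 0.8. Open promoters with few CpG included Kcnj14 at 0.139, Kcng4 at 0.177 and Kcnip3 at 0.249.

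**Figure D3:**
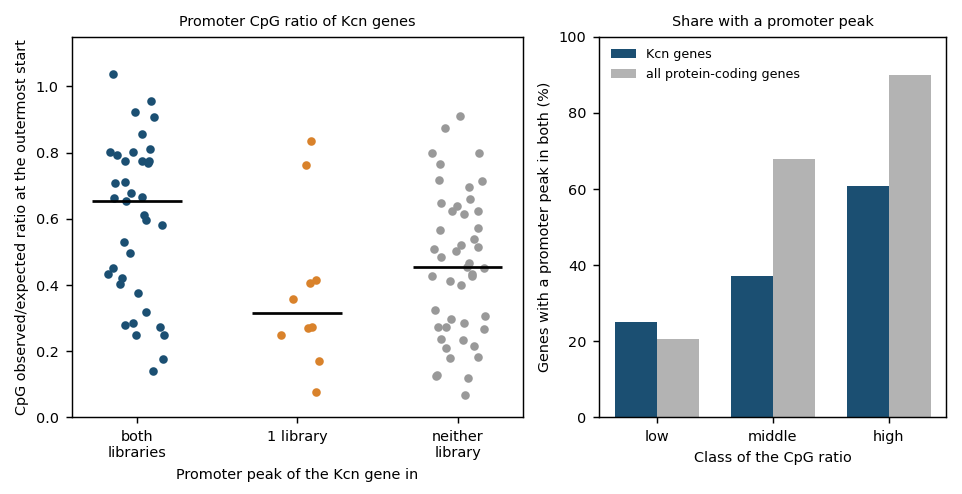
Left, CpG observed/expected ratio at the outermost start (y axis) of the 94 Kcn genes by where they had a promoter peak, with each point a gene and the line the median (0.653 for both libraries and 0.454 for neither). Right, percent of genes with a promoter peak in both libraries (y axis) for Kcn genes in dark blue and all protein-coding genes in grey, in 3 equal classes of the ratio.

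Kcn genes are longer and stand farther from other genes. Their median length was 30.8 kb, against 17.4 kb over all genes, and 18 of 94 (19.1%) were over 200 kb, against 4.58% of all genes. Of those 18 long Kcn genes, 5 were open (27.8%), against 57.1% of all genes over 200 kb. They were Kcnh1, Kcnab1, Kcnq1, Kcnj6 and Kcnn2. Among the 38 Kcn genes with no other gene start within 50 kb of their own, 7 were open (18.4%), against 45.1% of all such genes. No Kcn call rested on a neighbour's promoter alone. Without peaks within 1 kb of another gene's start the Kcn count stayed at 37, whereas the share of all genes was 50.9%. The part that spacing plays in the lower Kcn share was not tested.

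Distal peaks, outside 1 kb of every protein-coding start, were found near most Kcn genes. At least 1 distal peak shared by both libraries lay within 50 kb of 75 of 94 Kcn genes (79.8%), against 79.9% of all genes. Such a peak may lie nearer to another gene. With only peaks nearest to the gene counted, it was 66 of 94 Kcn genes, a larger share than the 60.3% of all genes. Shared distal hotspots gave 75 Kcn genes, against 79.7% of all genes. The median number of shared distal peaks was 4 per Kcn gene and 5 per gene over all genes. In replicate 1 the Kcn windows held 967 distinct distal peaks, of which 62.5% were shared, against 64.1% of all distal peaks. In replicate 2 they held 898, of which 67.4% were shared, against 67.8%. The shared peaks were 604 distinct ones, and 15 of these were counted for 2 or more Kcn genes, since 9 pairs such as Kcnj9 and Kcnj10 or Kcne1 and Kcne2 have overlapping windows.

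The roles differed in these counts. The median was 8.5 shared distal peaks in auxiliary subunits and 7.5 in calcium- and sodium-activated channels. It was 5.5 in two-pore-domain channels, 3 in inward rectifiers, 2.5 in voltage-gated pore subunits and 1.5 in silent subunits. Within the auxiliary subunits single genes ran from 2 to 29. The windows searched were wider in 2 roles than in the others. Their median width was 155 kb in calcium- and sodium-activated channels and 113 kb in auxiliary subunits. The role medians were not divided by window width, so their order is one of counts and not of density. The 37 Kcn genes open at the promoter had a median of 10, against 8 for all open genes. Those with a promoter peak in neither library had a median of 1, against 1 for all such genes.

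The most shared distal peaks lay near Kcnn3, with 45 distal peaks in replicate 1 and 47 in replicate 2, of which 34 were shared. Kcnab2 had 39 in each library with 29 shared. Kcnh2 had 26 and 32 with 22 shared, and Kcnc4, a further fast voltage-gated pore, had 28 and 23 with 20 shared. The 10 leading genes also included Kcnip3 with 19 shared, and Kcnh3 and Kcnn1 with 17 each. Of these 10, the exception without a promoter peak was Kcnk15, a two-pore-domain gene, with 26 distal peaks in replicate 1, 31 in replicate 2 and 22 shared. Windows around several start sites are wider, and per 100 kb of window the order was another. Kcnk15 came first with 22 shared distal peaks per 100 kb in a window of 100.1 kb, followed by Kcnc4 with 20 and Kcnab2 with 18.2, while Kcnn3, with a window of 200 kb, had 17. The median was 3.25 per 100 kb over the Kcn genes, against 4 over all genes. The nearest shared peak of Kcnk15 lay 4998 bp from a start site. For 12 Kcn genes (12.8%) the nearest shared peak lay over 100 kb from a start site, against 12.8% of all genes.

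Kcnk15 was not the sole Kcn gene with open surroundings and a promoter without a peak. Kcng2 and Kcne2 each had 12 shared distal peaks, Kcnk7 had 10, and Kcnk9 and Kcnmb3 had 9 each. In all, 9 Kcn genes (9.57%) had no promoter peak and 5 or more shared distal peaks, against 8.32% of all genes. Among genes with a promoter peak in neither library, that is 9 of 47 Kcn genes, against 1810 of 8049 over all genes. At the other end, 10 Kcn genes (10.6%) had no peak of either library within 50 kb of a start, against 10.7% of all genes. They were Kcnb2, Kcnd2, Kcnh5, Kcnh7, Kcnq5, Kcnv1, Kcnj2, Kcnj3, Kcnj5 and Kcnj16. Kcnj3 was the most distant, with its nearest shared peak 588106 bp from a start site.

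**Figure D4:**
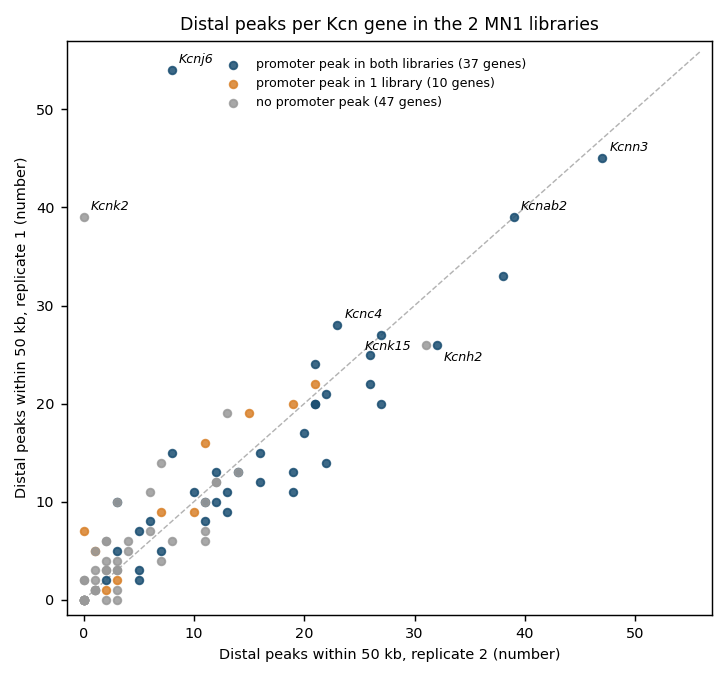
Number of distal peaks within 50 kb of each Kcn gene in replicate 1 (y axis) and replicate 2 (x axis), with each point a gene, coloured by its promoter status, and the dashed line at equal numbers. Most genes lie near the line, up to Kcnn3 at 45 and 47, whereas Kcnj6 (54 and 8) and Kcnk2 (39 and 0) lie far above it.

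Kcnj6 and Kcnk2 were the 2 genes at which the libraries differed most. Kcnk2 had 39 distal peaks in replicate 1 and 0 in replicate 2. Kcnj6 had 54 and 8, with 7 shared. These extra peaks lay in tight clusters inside the genes. At Kcnk2, 38 of the 39 lay between 93.1 and 111 kb downstream of the outermost start. At Kcnj6, 38 of the 54 were absent from replicate 2 and lay between 97.8 and 115 kb downstream. Shared peaks also lay in that stretch of Kcnj6, at percentiles 37.47 and 77.81 in replicate 1. The clusters spanned 18.1 kb at Kcnk2 and 17.2 kb at Kcnj6. The peaks of replicate 1 alone in these clusters had low scores. Their median percentiles were 1.85 at Kcnk2 and 2.02 at Kcnj6, with highest values of 4.76 and 6.11. Hotspots showed the same at Kcnk2, where 33 of replicate 1 and 0 of replicate 2 lay within 50 kb of a start.

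Such crowding occurred across the genome, mainly in replicate 1. Windows of 10 kb with at least 10 peaks that were absent from the other library numbered 264 in replicate 1, holding 2.49% of its peaks, and 30 in replicate 2, holding 0.252%. The peaks in them had a median percentile of 1.85 in replicate 1 and 16.2 in replicate 2. Without the peaks in such windows, Kcnk2 kept 1 distal peak and Kcnj6 kept 16 in replicate 1. No other Kcn gene had distal peaks in one, and counts of shared peaks do not include them. The next largest differences were far smaller. Kcnq1 had 11 distal peaks in replicate 1 and 19 in replicate 2, and Kcnt1 had 14 and 22. A difference of 7 was found at 6 genes. Kcnd1 had 10 and 3, Kcng4 20 and 27, Kcnj9 15 and 8, Kcnj10 14 and 7, Kcnk5 10 and 3, and Kcnmb2 7 and 0.

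**Figure D5:**
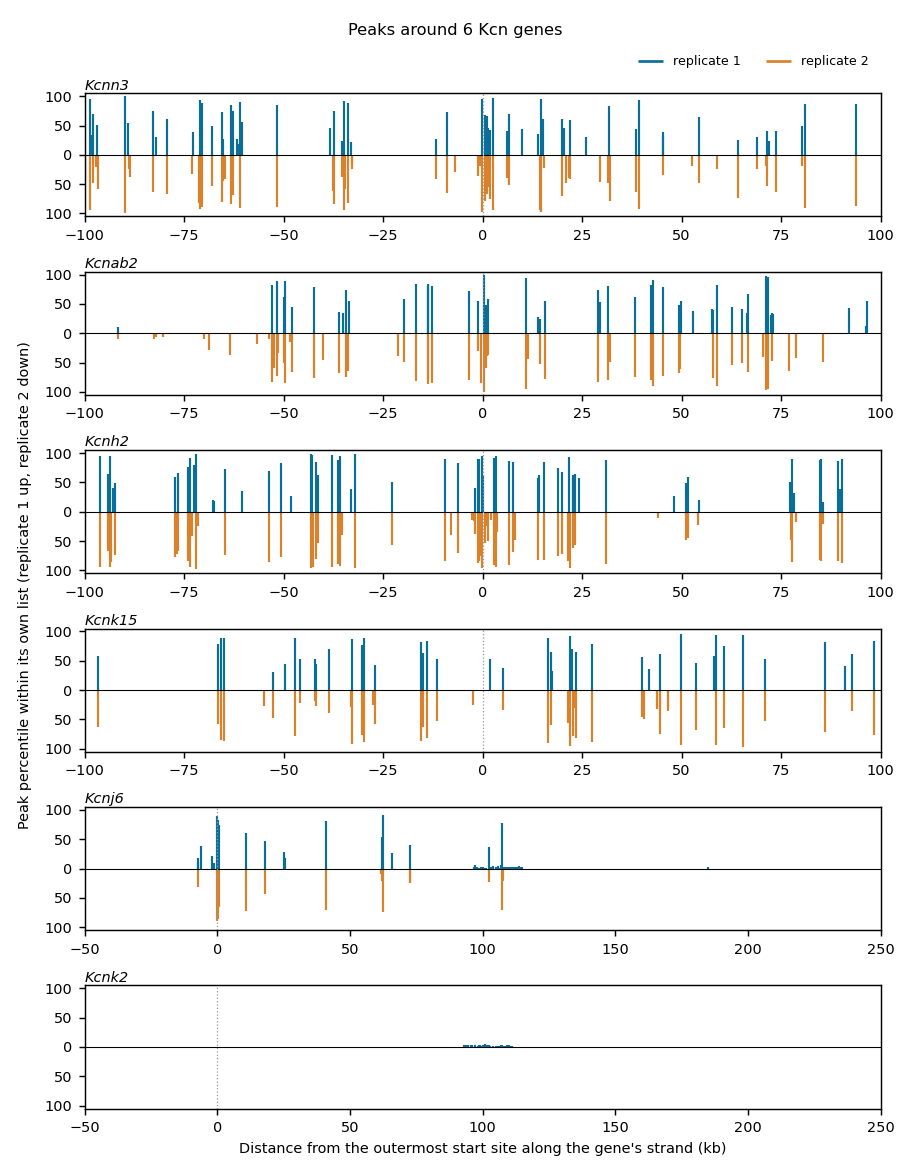
Peaks of replicate 1 (blue, upward) and replicate 2 (orange, downward) by distance from the outermost start site along the gene's strand (x axis, kb) at 6 Kcn genes, with bar height the percentile of the peak within its own list. Kcnn3, Kcnab2 and Kcnh2 show peaks on both sides and at the start, and Kcnk15 shows none of the shared peaks at its start. Kcnj6 and Kcnk2 show low clusters of replicate 1 only around 100 kb downstream. At Kcnj6 shared peaks of higher percentile lie within that stretch.

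Peaks inside the genes gave a further order. Between its outermost ends Kcnq1 held 40 shared peaks over 320.7 kb, although its promoter peak was low, at 30.56 in replicate 1 and 53.22 in replicate 2. Kcnn3 held 32, Kcnab2 22 and Kcnh1 20. Kcnma1, the longest of these at 725.1 kb, held 15 without a shared promoter peak, and Kcnab1 held 15 as well. Kcnh2 followed with 13, Kcnip3 and Kcnj12 with 12 each, and Kcnj6 with 11. No shared peak lay inside 40 of the 94 Kcn genes (42.6%), against 37.2% of all genes. Of the 604 shared distal peaks near Kcn genes, 53.3% lay in introns, 6.79% in exons and 39.9% between genes, against 46.2%, 5.3% and 48.5% of all shared distal peaks. Their median percentile in replicate 1 was 64.2, against 59.8 for all shared distal peaks.

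Short motifs were searched on both strands in the 150 bp around each peak centre. A match is a description of the letters and not of a bound factor, and motifs may overlap in the same bases. Among the 91 shared promoter peaks of the 37 open Kcn genes, GGGCGG (SP/KLF) was found in 36.3%, against 35.3% of all shared promoter peaks. CCAAT (NFY) was found in 15.4% against 20.1%, CAGCTG (an E-box) in 13.2% against 10.5%, and TGANTCA (AP-1) in 7.69% against 5.04%. The CTCF motif was found in 3.3% against 3.42%, and the RFX motif in 1.1% against 0.474%. AGATAA, the core bound by GATA factors, was found in 2.2% against 3.36%. CCGGAAG (ETS) was in 0 of the 91 Kcn promoter peaks, against 7.25% of all. TGACGTCA (CRE), TAATTA (homeodomain) and the NRF1 motif were also in 0, against 1.49%, 1.55% and 3.69%. A count of 0 of 91 allows a share of up to 3.3% by counting error alone, and the 91 peaks come from 37 genes and are not independent. Because that limit assumes independent peaks, it cannot decide whether the Kcn peaks differ from all peaks in any of these motifs.

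In the 604 shared distal peaks near Kcn genes the CTCF motif was found in 12.9%, against 9.43% of all shared distal peaks. Kcnip3 had 6 distal peaks with it, and Kcnk18 and Kcnt1 4 each. CAGCTG was found in 17.5% against 15.7%, CCAAT in 16.4% against 18.6%, TGANTCA in 11.8% against 14.7%, and AGATAA in 5.96% against 8.41%. GGGCGG was found in 7.28% against 6.31%, TAATTA in 4.3% against 4.97%, and CCGGAAG in 1.16% against 1.37%. TGACGTCA was found in 0.993% against 0.511%, RFX in 0.993% against 0.596%, and NRF1 in 0.166% against 0.18%. The strict REST motif was in none of the 91 or 604 Kcn peaks, against 0.0161% of all promoter peaks and 0.012% of all distal peaks, so this exact form was rare everywhere.

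Of 22 partners of potassium channels whose symbols do not start with Kcn, 14 were open (63.6%), against 59.4% of all genes. Hcn genes, which carry the depolarizing pacemaker current, were among them, such as Hcn4 at 99.09 in replicate 1 and 99.48 in replicate 2 and Hcn2 at 88.9 and 94.85. So were the 4 Dlg genes, which encode scaffolds that cluster channels, with Dlg2 at 99.8 and 99.64. Dpp6 and Dpp10, the membrane partners of Kcnd pores, had no promoter peak in either library, as was also the case for Kcnd2 and Kcnd3. Abcc9 had none and Abcc8 had one in replicate 1 only, at 10.2. Their products assemble with ATP-sensitive pores, of whose genes Kcnj11 was open and Kcnj8 had no promoter peak in either library. Among the most similar channel families, 8 of 10 Cacna1 genes for voltage-gated calcium channels and 7 of 10 Scn genes for sodium channel pores were open, beside 14 of 30 voltage-gated potassium pores. A peak at any start site counts, and the families differ in start sites. The median per gene was 8 in Cacna1, 4 in Scn and 3 in the voltage-gated potassium pores. The part that start-site number plays was not tested. No test of the differences in open genes was made, since genes are not replicates.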

How the data were processed

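DNase-seq peaks and hotspots were deposited for 2 MN1 libraries on mm10, per the notes deposited with the files. No aligner, peak caller or threshold is named there (not given in the sources used here), and read depth is unknown. Peaks of 150 bp carry a score of 1 to 150, deposited by the authors with no stated normalization, which was used as a percentile within each list. Hotspots carry a −log10 q value deposited by the authors, from 1.3 to 6 or set to 100. Repeated intervals (43 and 20) were kept once, and 383 and 335 peaks on other sequences were left out.

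Start sites (93196) came from GENCODE M21. A promoter peak has its centre within 1 kb of a start site, a distal peak lies outside 1 kb of every protein-coding start and within 50 kb, and a shared peak overlaps one of the other library by at least 1 bp, counted in the list of replicate 1. Python 3.11.15, numpy 2.4.6 and pysam 0.24.0 were used, and the counting was checked on simulated data.

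The Kcn genes, lists, motifs and naming rule were chosen with earlier results of these data known. By that rule, values are given for the 3 leading promoters per role, genes open in 1 library, the 10 genes with most shared distal or internal peaks, the 5 differing most between libraries and the 5 with most distal peaks and no promoter peak, with ties. Some genes that this rule names, with their sequences and subfamily counts, are not reported here. Other genes were named after their values were seen, as was the rule for crowded windows. The replicates' separate culture is known only from the labels, and no p-value was computed. Alternatives changed windows, start sites, score or q limits, overlap and library.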

Additional observations from a re-analysis of the deposited data

How the results depend on the processing

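Results were recomputed under the alternative settings, which gave 52 values. Of these, 43 stayed within 1.5 times the reported count or within the spread between libraries, and 9 moved. This limit compares Kcn values with each other, so it cannot say whether the gap to all genes held. For the 75 genes with a shared distal peak, even a count of all 94 would have stayed within it. The count of Kcn genes with a promoter peak in both libraries ranged from 32 with 1 start site per gene to 42 with a window of 2.5 kb, and it was 41 to 43 with 1 library left out. All genes ranged from 50.9% to 63.3% over these settings. The median of 4 shared distal peaks was 2 within 25 kb, 9 within 100 kb, 2 among peaks scoring above the middle of each list, 1 when only peaks nearest to the gene were counted and 3 with 1 start site per gene. Over all genes these medians were 2, 10, 2, 1 and 4. With 1 library left out, so that peaks need not be shared, it was 6.5 to 7.5. Silent subunits had 1 gene with a promoter peak in both libraries at 500 bp, where Kcng3 and Kcns1 were lost, and two-pore-domain channels had 6 at 2.5 kb, where Kcnk4, Kcnk7 and Kcnk15 were gained. No paired analysis was possible because the study has 1 group. Read depth is unknown, so a promoter without a peak was not detected here and is not shown to be closed chromatin in MN1 cells.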
